A study of Mus musculus with 19 samples.

Results

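Of the 49671 genes in the deposited table, 10 nuclear-encoded regulators of mitochondrial biogenesis were followed across 4 groups of mice. They were taken by gene symbol from a list of known regulators: the estrogen-related receptors Esrra, Esrrb and Esrrg, the coactivators Ppargc1a and Ppargc1b, the nuclear respiratory factors Nrf1 and Gabpa, and the mitochondrial transcription proteins Tfam, Tfb2m and Polrmt. RNA-seq was made from brain homogenate enriched for microglia, 1 library per mouse, on the B6D2F1/J background. The animals labelled HEM overexpress full-length human wild-type α-synuclein from the murine Thy-1 promoter, with the transgene on the X chromosome, and the WT animals are their controls. The older groups, 13 months of age, held 8 HEM and 4 WT animals, and the younger ones, 3 months of age, held 4 HEM and 3 WT. The Thy-1 promoter is used to drive transgenes in neurons, so the transgene and the cells enriched here are not of the same type. In such bulk RNA, fewer cells of a type and less RNA per cell cannot be told apart.

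Estrogen-related receptors are orphan nuclear receptors that bind the promoters of genes for the citric acid cycle, oxidative phosphorylation and fatty acid oxidation. They depend on the coactivators PGC-1α and PGC-1β, encoded by Ppargc1a and Ppargc1b. Of these, PGC-1α is induced by energy demand, fasting and cold. Neither coactivator carries a DNA-binding domain of its own. The same coactivators work with nuclear respiratory factor 1 (Nrf1, unrelated to the oxidative stress factors of the Nfe2 family) and with GABP, whose DNA-binding subunit is Gabpa. These factors in turn drive the genes for the proteins that read the mitochondrial genome: the RNA polymerase Polrmt, the packaging and initiation factor Tfam, and the initiation factor Tfb2m that opens the promoter. Brown fat, heart, kidney and brain are known for high levels of PGC-1α.

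Depth and cell content touch the results that follow. Depth moved with genotype at 13 months: HEM libraries held 63.3 to 95.8 M reads in genes and WT libraries 93.2 to 124.5 M, beside 74.7 to 112.9 M and 83 to 106.8 M in HEM and WT at 3 months. The part of depth in the differences was not tested. Log2 values of replicates within a group correlated at 0.942 to 0.981. On principal components of the log2 values 3 libraries stood apart from their groups: HEM replicate 1 at 13 months and HEM replicate 3 at 3 months on the first component (13.7% of the variance), and HEM replicate 11 at 13 months on the third (8.5%). Results that lean on them are given with and without them. Microglial markers were present in each library, with the 10 genes summing to 399587 to 1137749 normalized counts, and 0 of the 10 were called between HEM and WT at 13 months. Choroid plexus markers were abundant and moved with genotype: 6 of 6 were lower in HEM at 13 months, with a median log2 difference of -1.02, and their sum was 1362698 to 2674552 in HEM against 3410959 to 4108399 in WT. Neutrophil markers moved the other way, with 8 of 8 higher, a median of 2.33, and sums of 59281 to 523251 in HEM against 34150 to 94882 in WT. Of the erythroid markers 3 of 8 were higher, of the neuronal markers 0 of 10 were called, and of the astrocyte markers 1 of 6 was lower. No marker gene was at 0 in any library.

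Levels were compared between regulators as normalized counts per kilobase of exon. Esrra, the receptor expressed most widely in adult tissues, stood first in each group, at 1800 ± 198 per kilobase (SD, n = 4) in WT mice of 13 months and 1340 ± 122 (SD, n = 8) in HEM mice of that age. Its lowest library was above the highest library of the next gene in each group. Polrmt, Gabpa, Tfam and Tfb2m followed, between 516 ± 9.98 (Tfb2m, WT at 3 months, n = 3) and 747 ± 53.8 (Gabpa, HEM at 13 months, n = 8). In the 13-month groups the libraries of each of these 4 overlapped those of its neighbour in the order. Nrf1, Ppargc1a and Esrrg lay lower, between 214 and 407 per kilobase, and they did not keep 1 order. In WT mice of 13 months Ppargc1a at 407 ± 21.6 and Esrrg at 364 ± 36.4 were above Nrf1 at 269 ± 7.43 with no overlap between Esrrg and Nrf1. In HEM mice of that age Nrf1 came first of the 3, at 321 ± 29, with overlapping libraries. Ppargc1b and Esrrb were lowest, Ppargc1b at 132 to 147 per kilobase in the 4 group means, and Esrrb at 56.4 to 157. All 10 regulators were detected far above the minimum value of 10 normalized counts, the lowest library of all being 228 for Esrrb, so each passed the filter on low values in every group.

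The promoter sequences of Tfb2m and Polrmt are shown because both genes encode subunits of the same mitochondrial initiation complex, yet only Tfb2m was called between genotypes. Each runs 5′ to 3′ from 120 bases before to 25 after the RefSeq start of the gene (GRCm38.p6), with capitals at the matched motif. Tfb2m lies on the minus strand at chr1:179546252-179546396 and Polrmt on the minus strand at chr10:79746557-79746701.
Tfb2m: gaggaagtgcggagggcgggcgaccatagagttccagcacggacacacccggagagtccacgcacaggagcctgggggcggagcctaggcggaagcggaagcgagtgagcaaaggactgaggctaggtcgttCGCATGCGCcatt
Polrmt: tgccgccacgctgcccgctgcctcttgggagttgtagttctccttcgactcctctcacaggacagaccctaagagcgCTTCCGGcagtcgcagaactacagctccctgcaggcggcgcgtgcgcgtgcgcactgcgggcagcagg
The capitals in Tfb2m are the NRF-1 site GCGCATGCG read on the other strand, beginning 12 bases after the start. This motif was in 1.75% of 32851 promoter windows of 300 bases, searched on both strands. The capitals in Polrmt are the ETS core CCGGAAG, the kind of site GABP binds, also on the other strand and 43 bases before the start; 8.86% of windows held it. The windows searched were 14, for 9 of the 10 regulators; Ppargc1b was not searched. Of these, Tfam held the ETS core 47 bases and Gabpa 93 bases before the RefSeq start. GENCODE M21 begins both of these genes further upstream, so that by its coordinates these sites lie inside the gene. The windows of Esrra, Esrrb, Esrrg, Ppargc1a and Nrf1 held none of the 5 motifs searched, which also included the estrogen-related receptor element TCAAGGTCA (0.423% of windows), its half-site AAGGTCA (4.72%, found also inside the full element) and the cyclic AMP element TGACGTCA (1.79%). A match of letters is a description of the window and not evidence of binding.

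At 13 months, the comparison of HEM with WT asks how the brain preparation of aged α-synuclein mice differs from that of controls. Of the 10 regulators 5 were lower in HEM (Esrra, Esrrb, Esrrg, Ppargc1a and Tfb2m), 1 was higher (Nrf1), and 4 were not called (Ppargc1b, Gabpa, Tfam and Polrmt). Calls are at an adjusted p under 0.05 in a limma model fitted to all 23973 genes tested, in which 12.2% of genes were called, 7.3% lower and 4.87% higher. The libraries of the 2 genotypes did not overlap for 4 regulators, Esrrb, Esrrg and Tfb2m lower and Nrf1 higher, against 6.66% of all genes tested (3.98% lower and 2.69% higher). The median log2 difference of the 10 was -0.21, beside 0.034 over all genes tested.

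**Figure D1:**
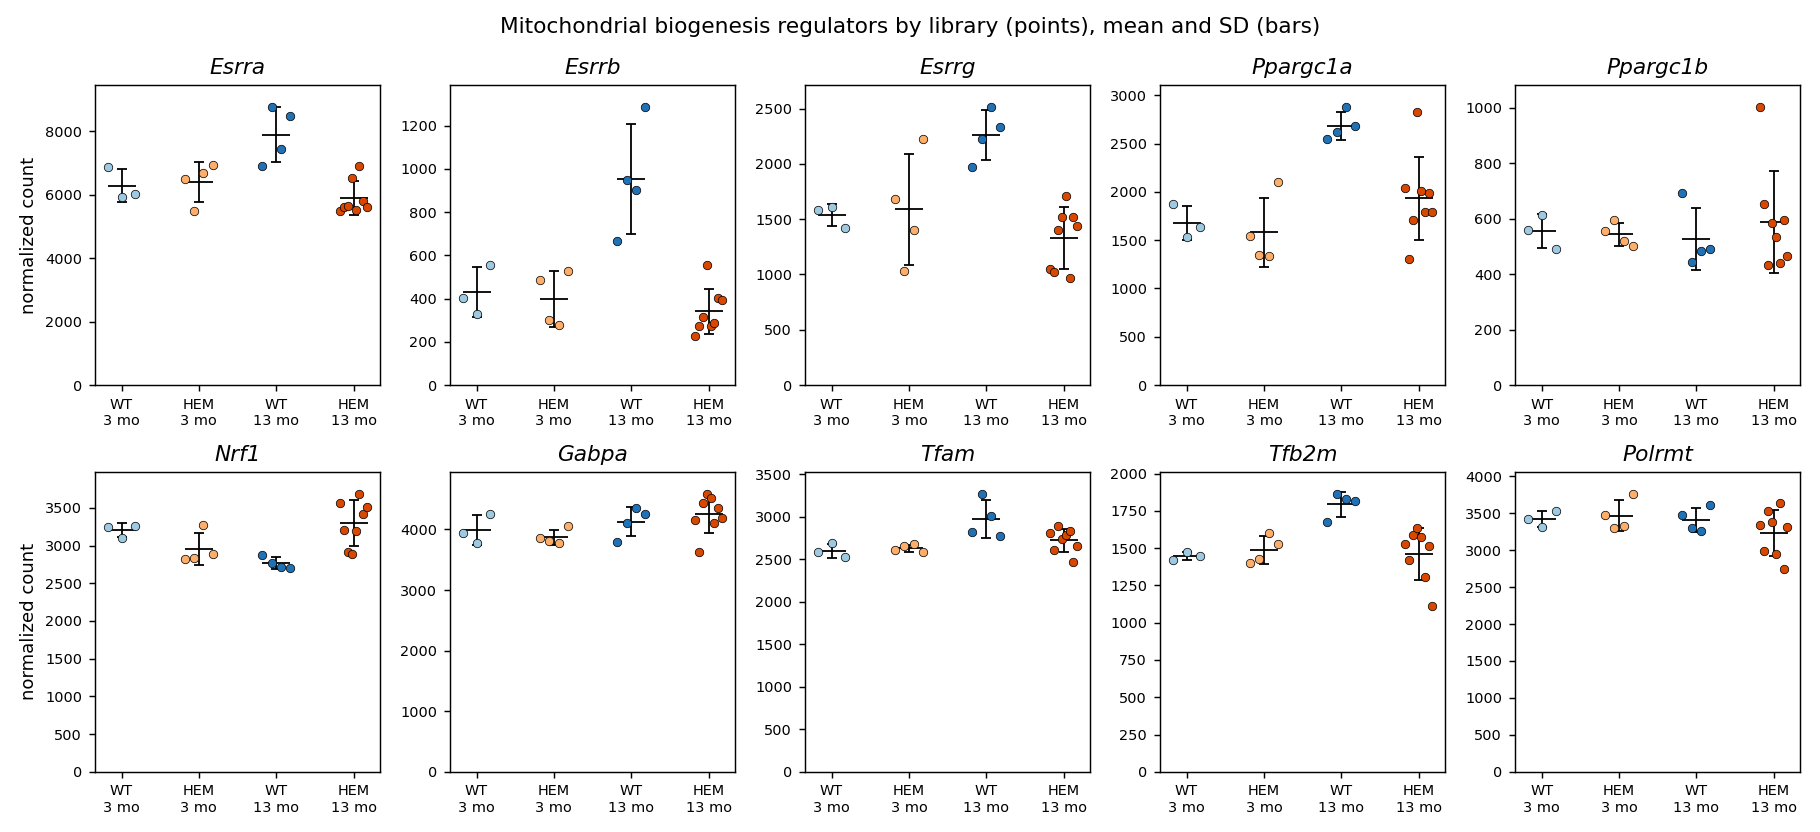
Normalized counts of the 10 regulators (vertical axes, each starting at 0) in the 4 groups, 1 point per library, with the group mean and SD as black bars. The dark blue points of WT mice at 13 months lie above all orange-red points of HEM mice at 13 months for Esrrb, Esrrg and Tfb2m, and below all of them for Nrf1.

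All 3 estrogen-related receptors were lower in HEM, and Esrrb and Esrrg had the widest differences of the 10 regulators. Esrrb (chr12:86361117-86521628, mm10), a receptor best known from pluripotent cells, inner ear and retina, had 668, 951, 902 and 1286 normalized counts in the 4 WT libraries. In the 8 HEM libraries it ran from 228 through a median of 300 to 557. Each HEM library was below each WT library, and the group means were 341 ± 106 (SD, n = 8) and 952 ± 255 (SD, n = 4). The log2 difference was -1.49 ± 0.25 (SE; limma adjusted p = 0.00208), which puts HEM at 0.355 of the WT level. Esrrg (chr1:187608791-188214885), the family member enriched in brain, heart and other tissues of high oxidative demand, had 1973, 2229, 2514 and 2334 in WT. Its HEM libraries ran from 970 through a median of 1420 to 1708, again with no overlap. The log2 difference was -0.79 ± 0.18 (limma adjusted p = 0.00741). Esrra (chr19:6910977-6921813), whose product binds the promoters of many oxidative phosphorylation genes, had 6903, 8756, 7441 and 8468 in WT. In HEM it ran from 5491 through a median of 5631 to 6912, and 7 of the 8 HEM libraries were below all WT libraries. The exception was HEM replicate 11, at 6912, just above the lowest WT library. The log2 difference was -0.42 ± 0.09 (limma adjusted p = 0.00468).

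Within the receptor family the balance differed between groups. Esrra stood at 11.8 ± 2.19 times Esrrb per kilobase in WT mice of 13 months (range 9.08 to 14.3), at 25.3 ± 6.34 in HEM mice of that age (16.2 to 33.2), and at 23.7 ± 7.07 and 21.1 ± 5.35 in HEM and WT mice of 3 months. The WT mice of 13 months were thus the group with the most Esrrb relative to Esrra, and their highest ratio was below the lowest of each other group. The ratio of Esrra to Esrrg was 4.96 ± 0.573 in WT and 6.56 ± 1.78 in HEM at 13 months, with overlapping ranges. These ratios were not tested.

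The coactivators parted. Ppargc1a (chr5:51454250-51567726) had 2546, 2620, 2878 and 2680 normalized counts in the WT libraries of 13 months. The HEM libraries ran from 1305 through a median of 1890 to 2826, and 7 of 8 were below all WT libraries. HEM replicate 7, at 2826, stood among the WT values. The log2 difference was -0.50 ± 0.15 (limma adjusted p = 0.0385), or 0.708 of the WT level. Ppargc1b (chr18:61298136-61400431), the other coactivator, had 692, 442, 485 and 490 in WT and 432 to 1003 in HEM with a median of 559. The groups overlapped, and the log2 difference of 0.13 had a 95% interval from -0.27 to 0.52 (limma adjusted p = 0.762).

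Of the nuclear respiratory factors, Nrf1 was the only one of the 10 regulators called higher in HEM. It lies at chr6:30047988-30153458. It had 2875, 2766, 2719 and 2708 normalized counts in WT, a narrow range, and 2885 to 3685 in HEM with a median of 3316. All 8 HEM libraries were above all WT libraries, the lowest of them by a small margin (2885 against 2875). The log2 difference was 0.25 ± 0.07 (limma adjusted p = 0.0327), or 1.19 times the WT level. Gabpa (chr16:84834925-84863779) had 3795, 4114, 4352 and 4251 in WT and 3624 to 4587 in HEM, with a log2 difference of 0.04 and a 95% interval from -0.10 to 0.18 (limma adjusted p = 0.794). Of the exon bases of Gabpa 6.98% are shared with Atp5j on the opposite strand, and whether counting used strand is not given in the sources used here.

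Among the proteins that transcribe mitochondrial DNA, Tfb2m (chr1:179528055-179546267) was lower in HEM. It had 1675, 1864, 1827 and 1814 normalized counts in WT, and 1111 to 1633 in HEM with a median of 1522. No HEM library reached the lowest WT library, and the log2 difference was -0.31 ± 0.09 (limma adjusted p = 0.0397). Tfam (chr10:71225464-71238280), which coats and bends mitochondrial DNA and whose dose tends to track its copy number, had 2819, 3267, 3006 and 2778 in WT and 2465 to 2886 in HEM. All 8 HEM libraries were below the WT mean of 2967, but only 4 were below all WT libraries, and the log2 difference of -0.12 ± 0.06 was not called (limma adjusted p = 0.234). Polrmt (chr10:79736123-79746581), the polymerase itself, had 3476, 3295, 3257 and 3607 in WT and 2748 to 3638 in HEM, with a log2 difference of -0.08 and an interval from -0.24 to 0.08 (limma adjusted p = 0.59).

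**Figure D2:**
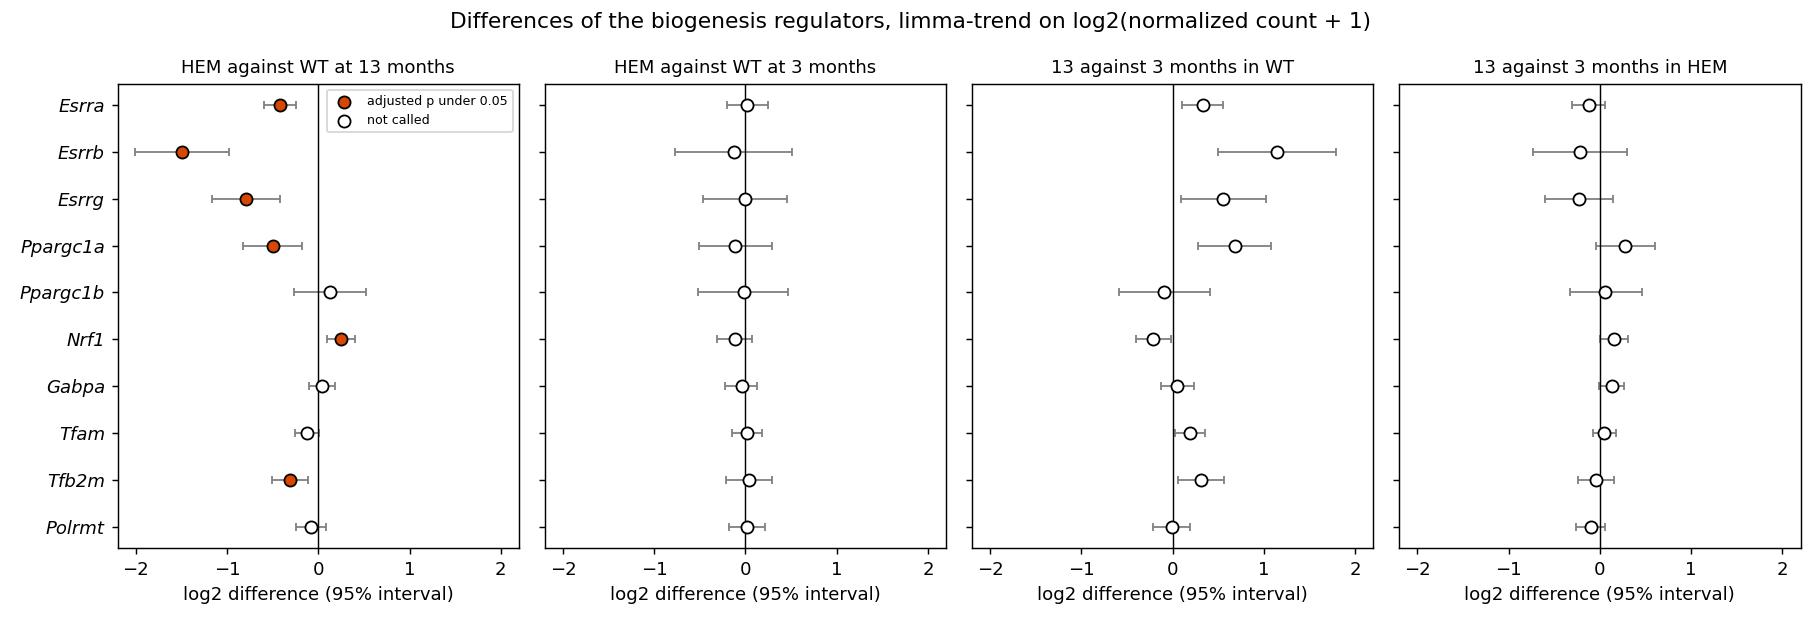
Log2 differences of the 10 regulators (horizontal axis) with their 95% intervals in 4 comparisons, from limma on log2(normalized count + 1); filled points have an adjusted p under 0.05. Filled points appear in the first panel only, 5 to the left of 0 and Nrf1 to the right.

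The receptor calls were steadier than the others. Esrra, Esrrb and Esrrg were called in all 19 fits that left out 1 library, with the largest adjusted p in limma at 0.0268, 0.0121 and 0.0331. Ppargc1a lost its call in 8 of these fits, Nrf1 in 7 and Tfb2m in 5, and without HEM replicate 11 or WT replicate 7, 8 or 9 all 3 lost it together. Without the 3 libraries that stand apart, the receptors were again the 3 called, at -0.44, -1.37 and -0.67, while Ppargc1a at -0.50 (limma adjusted p = 0.0678), Nrf1 at 0.20 (limma adjusted p = 0.101) and Tfb2m at -0.29 (limma adjusted p = 0.0816) were not. edgeR and DESeq2 on the recovered reads each called the same 6 of 10.

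The choroid plexus marker level moved with the regulators that were lower. It is the mean log2 level of 6 genes of the epithelium that secretes cerebrospinal fluid (Ttr, Folr1, Kl, Clic6, Otx2 and Kcne2). At 13 months it was 16.04 to 16.53 in the WT libraries and 14.81 to 15.87 in the HEM libraries, with no overlap. HEM replicate 7 had the highest marker level of its group, 15.87, and also the highest Esrrb (557) and Ppargc1a (2826). At 3 months, HEM replicates 7 and 1 had the highest marker levels of their group (16.33 and 15.96) and the highest Esrrg (2229 and 1685), Esrrb (530 and 485) and Ppargc1a (2102 and 1543). WT replicate 6 of 13 months had the lowest marker level of its group, 16.04. It also had the group's lowest Esrra (6903), Esrrb (668), Esrrg (1973), Ppargc1a (2546) and Tfb2m (1675). HEM replicate 3 of that age had the lowest marker level of its group, 14.81, and the lowest Ppargc1a, 1305. Some other libraries did not follow. HEM replicate 1 of 13 months had a marker level of only 14.96, with Ppargc1a at 2045, above 6 of the other 7, and the lowest Esrrg, 970, was in replicate 11 at 15.38. The highest Esrra of the HEM mice of 13 months, 6912, was in replicate 11 at a marker level of 15.38, and the highest Esrrb of the WT mice of 3 months, 555, was in replicate 5 at 15.34, the lowest marker level of its group. With this marker level as a covariate at 13 months, 0 of the 10 regulators and 0 of all genes were called by limma, 1775 genes having an unadjusted p under 0.05. In that fit the log2 differences were -0.19 for Esrra, -0.79 for Esrrb, -0.08 for Esrrg, 0.06 for Ppargc1a, 0.13 for Nrf1 and -0.20 for Tfb2m. Marker level and genotype do not overlap at 13 months, so the 2 cannot be told apart there. The covariate for neutrophil and erythroid markers also left 0 regulators and 0 of all genes called (2050 unadjusted), with log2 differences of -0.24, -1.36, -0.78, -0.47, 0.21 and -0.18 for the same 6. With a microglial, astrocyte or neuronal covariate the same 6 stayed called.

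**Figure D3:**
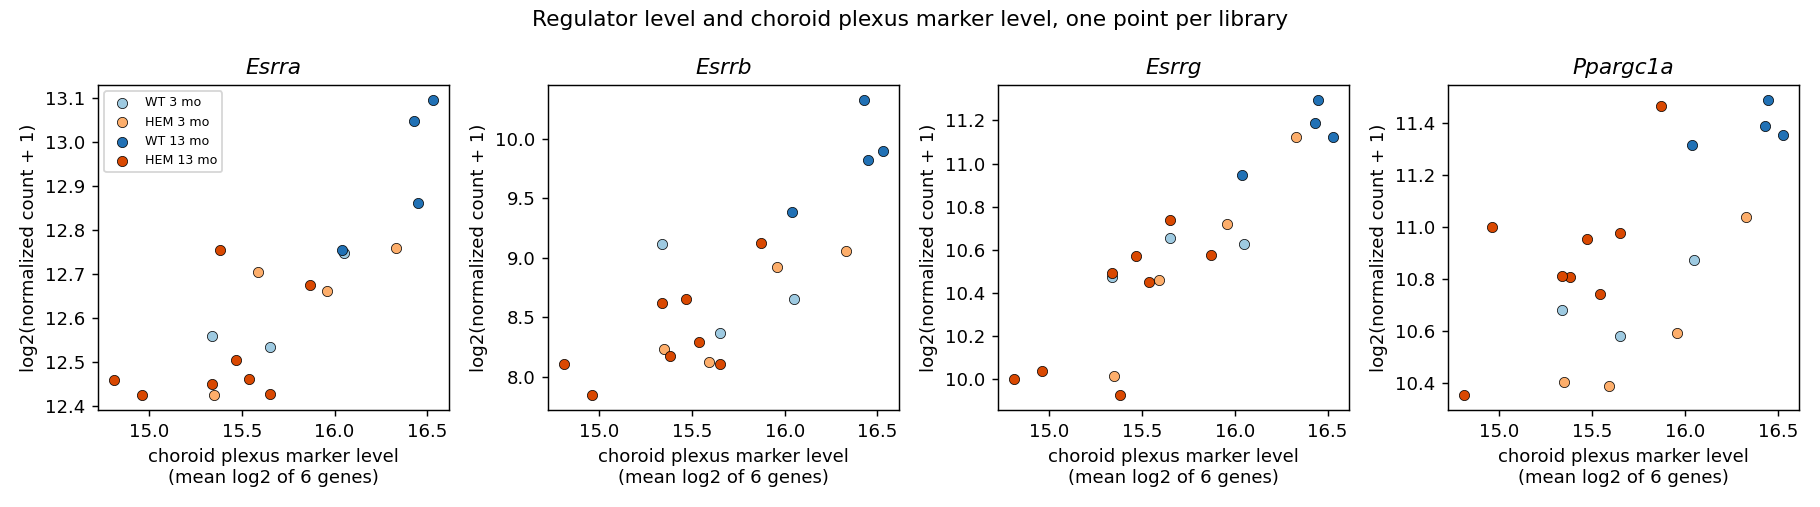
Log2(normalized count + 1) of Esrra, Esrrb, Esrrg and Ppargc1a (vertical axes) against the choroid plexus marker level (horizontal axis, mean log2 of 6 genes), 1 point per library, coloured by group. The 4 WT libraries of 13 months, at marker levels of 16.04 to 16.53, sit at the upper right, and the HEM libraries of that age lie at 14.81 to 15.87.

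At 3 months none of the 10 regulators was called between HEM and WT, and neither was any of all genes tested (0% called). At an unadjusted p under 0.05 limma gave 0 regulators, beside 3.85% of all genes. edgeR and DESeq2 called 0 regulators too, DESeq2 calling 6 genes in all. The log2 differences ran from -0.13 to 0.04, and their 95% intervals reached from -0.77 to 0.51. Esrrb, for example, had 485, 300, 278 and 530 normalized counts in HEM and 402, 329 and 555 in WT, a difference of -0.13 with an interval from -0.77 to 0.51. Esrra had 6478, 5497, 6672 and 6927 in HEM and 6872, 5923 and 6031 in WT, a difference of 0.02 with an interval from -0.20 to 0.25. The interval for Esrra at 3 months ended short of its difference at 13 months (-0.42), which had its own interval from -0.6 to -0.24. The interval for Ppargc1a at 3 months (-0.51 to 0.29) reached its difference at 13 months (-0.50). Setting an interval beside an estimate in this way does not test a change with age. The libraries overlapped for all 10 regulators, beside 5.86% of all genes whose libraries did not. Cell markers leaned apart at 3 months as well, with 0 called. All 10 neuronal markers were at positive differences (median 1.16). The 8 neutrophil and 8 erythroid markers were at negative ones (medians -0.65 and -0.43), and the choroid plexus median was 0.13. With the neuronal covariate, or the neutrophil and erythroid covariate, 0 regulators were called. No choroid plexus covariate was fitted at 3 months.

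Whether the genotype difference itself changed with age was tested as an interaction. None of the 10 regulators was called by limma (0% of all genes), but 5 had an unadjusted p under 0.05, beside 14.8% of all genes. These were Esrrb at -1.36 ± 0.39 (limma adjusted p = 0.119), Esrrg at -0.78 ± 0.29 (0.2), Esrra at -0.45 ± 0.14 (0.142), Tfb2m at -0.35 ± 0.15 (0.284) and Nrf1 at 0.37 ± 0.12 (0.148). edgeR also called 0 of the 10, and DESeq2 called 3 of them: Esrrb (adjusted p = 0.0228), Nrf1 (0.0377) and Esrra (0.047). A genotype difference that depends on age was therefore called by 1 of 3 methods. Cell markers had interactions too, with 0 called by limma. The median was -1.13 for choroid plexus markers (6 of 6 at an unadjusted p under 0.05) and 2.91 for neutrophil markers (8 of 8). It was 1.45 for erythroid (5 of 8) and -1.04 for neuronal markers (0 of 10). The part of the choroid plexus markers in the regulators' interactions was not tested.

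Age was then compared within each genotype. In WT mice no regulator was called (0.709% of all genes were), yet 7 of 10 had an unadjusted p under 0.05, beside 15.5% of all genes, and the libraries of the 2 ages did not overlap for the same 7, beside 15.3% of all genes (8.83% higher and 6.46% lower at 13 months). Esrra, Esrrb, Esrrg, Ppargc1a, Tfam and Tfb2m stood above their 3-month levels and Nrf1 below. Marker levels of other cells also stood apart between the ages in WT. All 6 endothelial markers were at negative differences (median -1.16, 0 called, 6 at an unadjusted p under 0.05). So were the 8 neutrophil (median -1.16) and 8 erythroid markers (median -1.17), while the 6 choroid plexus markers had a median of 0.76. Of the 6 astrocyte markers 4 were at positive and 2 at negative differences (median 0.44, range -0.35 to 1.16). Among these Aldh1l1 was called higher (0.71 ± 0.16). For age, only the neuronal covariate and the neutrophil and erythroid covariate were fitted. The part of the endothelial, choroid plexus and astrocyte markers in the regulators' age differences was not tested. Esrrb had 402, 329 and 555 normalized counts at 3 months against 668 to 1286 at 13 months, a log2 difference of 1.14 ± 0.31 (limma adjusted p = 0.0734). Ppargc1a had 1874, 1531 and 1638 against 2546 to 2878, a difference of 0.68 ± 0.19 (limma adjusted p = 0.0841). DESeq2 called these 2, with adjusted p at 0.0112 and 0.0261, and edgeR called 0. The other differences were 0.33 for Esrra, 0.55 for Esrrg, 0.31 for Tfb2m, 0.19 for Tfam and -0.21 for Nrf1, with adjusted p in limma between 0.136 and 0.271. Limma called Esrrb (1.30, adjusted p = 0.0444) without WT replicate 6 of 13 months, and Esrrb and Ppargc1a without HEM replicate 7 of 13 months (adjusted p = 0.0426 and 0.0396), a library that enters this comparison only through the shared estimate of spread.

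In HEM mice 0 regulators were called between the ages (1.62% of all genes were), by limma, edgeR or DESeq2. Of the 10, only Nrf1, at 0.16, had an unadjusted p under 0.05, beside 16.6% of all genes. The log2 differences ran from -0.23 for Esrrg to 0.28 for Ppargc1a, and for none of the 10 were the ages free of overlap, beside 2.79% of all genes. The receptors were at -0.12 (Esrra), -0.22 (Esrrb) and -0.23 (Esrrg), with intervals from -0.73 at the lowest to 0.30 at the highest. Marker levels moved with age in HEM too. The median was -1.15 for the 6 endothelial markers (2 called lower), and 1.75 for neutrophil, -0.93 for neuronal and -0.43 for choroid plexus markers (0 called). It was 0.48 for astrocyte markers (2 of 6 called higher) and 0.16 for erythroid markers (1 of 8 called higher). The part of the endothelial, choroid plexus and astrocyte markers was not tested here either. The comparison at 13 months and the one within WT share the WT libraries of 13 months, so the values of these comparisons do not come from independent samples. Seen as levels, the WT group of 13 months was the one that stood off: Esrrb averaged 952 there and 341, 398 and 429 in HEM at 13 months, HEM at 3 months and WT at 3 months, and Tfb2m averaged 1795 there and 1459, 1489 and 1446 in the others. The choroid plexus marker level was also highest in WT mice of 13 months, at a group mean of 16.36, beside 15.38, 15.81 and 15.68 in HEM at 13 months, HEM at 3 months and WT at 3 months. For Ppargc1a the other groups did not follow the marker order: it averaged 1934 in HEM at 13 months, above 1584 and 1681 in the 3-month groups.

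The genes that these regulators are known to drive were then read as lists. Of 21 targets of the estrogen-related receptors and PGC-1, 16 were lower in HEM at 13 months and 0 higher, beside 7.3% and 4.87% of all genes. Their median log2 difference was -0.52, beside 0.034 over all genes. Atp5g1, which encodes the membrane ring subunit of ATP synthase, had 12552 ± 3309 normalized counts in HEM (SD, n = 8) and 28244 ± 6434 in WT (SD, n = 4), a log2 difference of -1.18 ± 0.17 (limma adjusted p = 0.0016). Its libraries did not overlap (9214 to 19467 against 19809 to 35017). Sdha, the flavoprotein of succinate dehydrogenase, was lower by -0.52 ± 0.08, the cytochrome oxidase subunit Cox6c by -0.72 ± 0.11, and the catalytic ATP synthase subunit Atp5b by -0.70 ± 0.12. Beside the same shares of all genes, 10 of 15 targets of NRF-1 and GABP were lower and 0 higher, with a median of -0.51. They included Ndufs8 of complex I (-0.55 ± 0.09), Sdhd of complex II (-0.51 ± 0.08), and Cox4i1 and Cox8a of complex IV (-0.66 ± 0.11 and -0.78 ± 0.13). These targets were thus lower in the group in which Nrf1 itself was higher and Gabpa was not called. Without the 3 libraries that stand apart the counts were 14 and 10. Both lists had 0 calls with the choroid plexus covariate, with medians of -0.25 and -0.32, and 0 with the neutrophil and erythroid covariate, with medians of -0.49 and -0.41.

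**Figure D4:**
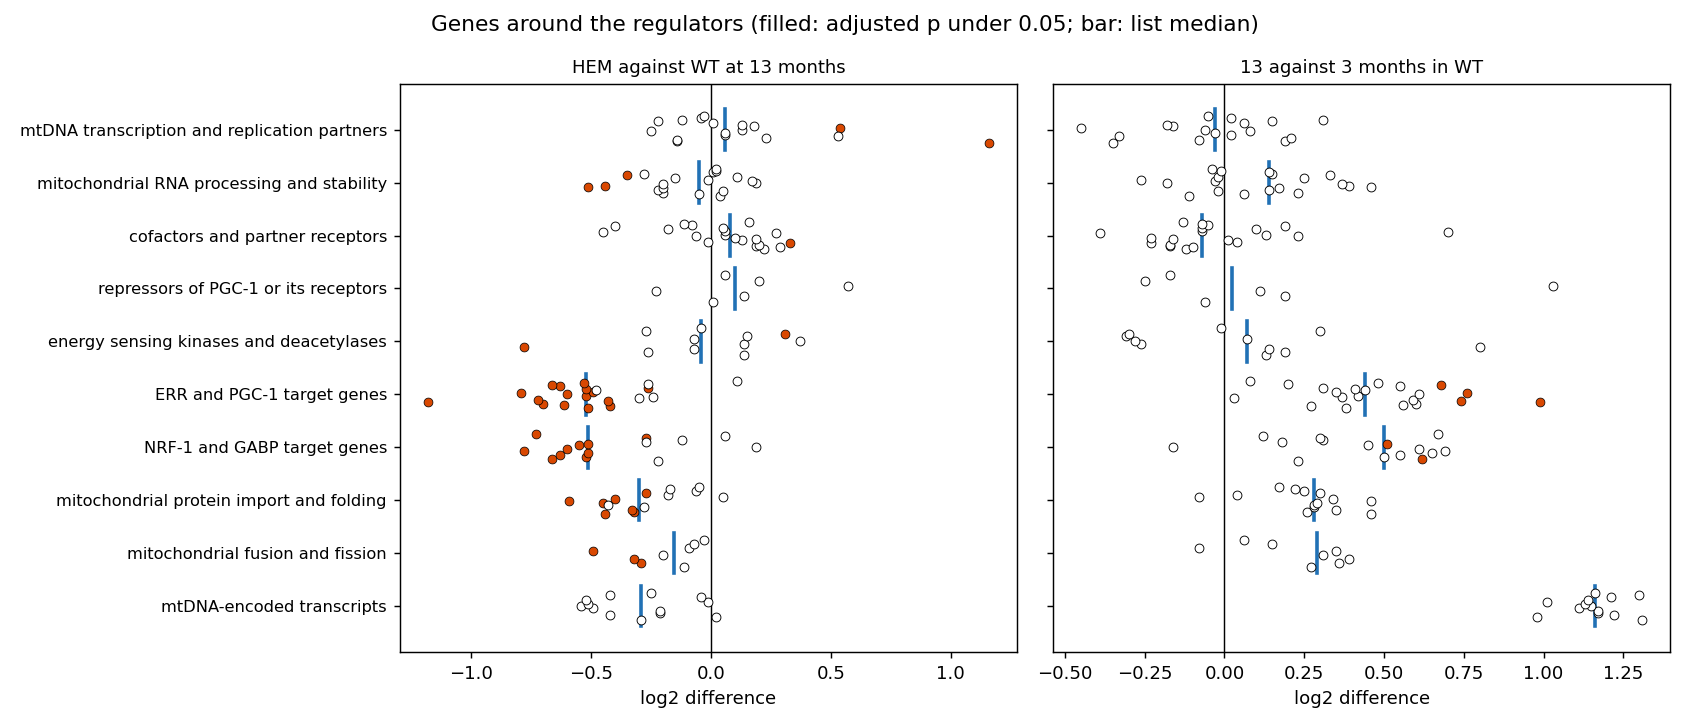
Log2 differences of single genes (points) in 10 lists around the regulators, with the list median as a blue bar, for HEM against WT at 13 months (left) and for 13 against 3 months in WT (right); filled points have an adjusted p under 0.05. The receptor and NRF-1 target lists have medians of -0.52 and -0.51 on the left and 0.44 and 0.50 on the right, and the mtDNA-encoded transcripts have a median of 1.16 on the right.

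The remaining lists at 13 months are read beside the 7.3% of all genes called lower and 4.87% called higher. Of 17 partners in the transcription and replication of mitochondrial DNA, 2 were higher in HEM at 13 months: Dna2, a nuclease and helicase (1259 ± 257 in HEM and 556 ± 60 in WT, a log2 difference of 1.16 ± 0.18, limma adjusted p = 0.00176), and Polg2, the accessory subunit of the mitochondrial DNA polymerase (0.54 ± 0.16). None of the 17 was lower by limma, and DESeq2 called 1 lower. Of 19 genes of mitochondrial RNA processing, 3 were lower: Hsd17b10, a subunit of mitochondrial ribonuclease P (-0.44 ± 0.08), Rexo2, an oligoribonuclease (-0.35 ± 0.07), and Grsf1, an RNA-binding protein of mitochondrial RNA granules (-0.51 ± 0.11). With so few genes called, neither count is read as a result about its list. Of 14 genes of protein import and folding 7 were lower, among them the translocase subunits Timm17a (-0.59 ± 0.09) and Timm23 (-0.40 ± 0.09). Of 8 genes of fusion and fission 3 were lower, the fusion protein Mfn2 (-0.49 ± 0.10) and the fission receptors Mff (-0.32 ± 0.09) and Fis1 (-0.29 ± 0.08). The lists share some genes, so their counts are not independent. Mfn2 is also among the receptor targets, and Tomm20 is in both the NRF-1 and GABP target list and the import list.

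Upstream of the regulators, 1 of 20 cofactors and partner receptors was higher at 13 months, a share near the 4.87% of all genes: Gabpb2, a partner subunit of Gabpa (0.33 ± 0.09). None of 6 repressors was called by limma, edgeR or DESeq2, and 0 had an unadjusted p under 0.05. The corepressor Ncor1 stood at 0.14 (limma adjusted p = 0.406). Of 11 energy-sensing enzymes 1 was lower and 1 higher, beside 7.3% and 4.87% of all genes, too few to be read as a result about the list. The AMP-activated kinase subunit Prkaa2 was lower (-0.78 ± 0.18, limma adjusted p = 0.00841). The deacetylase Sirt1, which acts on PGC-1α, was higher (0.31 ± 0.08, limma adjusted p = 0.015). For both, the libraries of the genotypes did not overlap, beside 6.66% of all genes whose libraries did not.

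The 13 protein-coding transcripts of the mitochondrial genome, the end products of Polrmt, Tfam and Tfb2m, were not called at 13 months, with a median of -0.29 and 0 at an unadjusted p under 0.05. edgeR and DESeq2 called 0 of them as well. In WT mice all 13 stood above their 3-month levels, with a median log2 difference of 1.16 and a range of 0.98 to 1.31, and all 13 had an unadjusted p under 0.05. None was called by limma or edgeR, and 11 were by DESeq2. mt-Atp6, an ATP synthase subunit, had 16809 to 22065 normalized counts in WT at 3 months and 36971 to 65750 at 13 months, with no overlap (1.31 ± 0.32, limma adjusted p = 0.0581). In HEM mice the 13 were also above their 3-month levels, with a median of 0.63, 0 called by limma and edgeR, 8 at an unadjusted p under 0.05 and 6 called by DESeq2. Of the nuclear targets in WT, 4 of 21 receptor targets were higher at 13 than at 3 months (Cox5a, Sod2, Atp5g1 and Idh3a, by 0.68 to 0.99) and 2 of 15 NRF-1 and GABP targets (Sdhd and Cox4i1, by 0.51 and 0.62), beside 0.463% of all genes. edgeR called 2 and 1 genes of these lists, and DESeq2 15 and 10. Both counts were 0 in a fit of the compared groups alone and 0 with the neutrophil and erythroid covariate, and 1 and 1 with no filter on low values. With the replicate block 0 of all genes were called for age in WT. The same held without WT replicate 7 of 13 months, and without WT replicate 1 or 5 of 3 months. In HEM, 0 of the 21 and 0 of the 15 were called between the ages by any of the 3 tools, with 2 and 1 at an unadjusted p under 0.05. Between the genotypes at 3 months no gene of the 10 lists was called by any of the 3 tools.

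The genes whose profile over the 19 libraries lay nearest to each called regulator were found as the smallest root mean square distance between centred log2 levels. Nearest to Esrra were Dlst, a subunit of the 2-oxoglutarate dehydrogenase complex of the citric acid cycle (distance 0.08, beside a spread of 0.20 for Esrra itself), Stx18 and Tmem106c. Nearest to Esrrb were Drc7, a part of the dynein regulatory complex of motile cilia (0.26, beside a spread of 0.68), Baiap2l1 and Wdr72. Nearest to Esrrg were Pdzrn3 (0.15, beside 0.40), Iqub and Rhod. Nearest to Ppargc1a were the neurotrophin receptor Ntrk2 (0.12, beside 0.36), the astrocyte marker Aldh1l1 (0.14) and Aldh6a1. Aldh1l1 was the 1 of 6 astrocyte markers called lower in HEM at 13 months (-0.43). Of the 6, 4 were at positive and 2 at negative differences (median 0.04). Nearest to Nrf1 were the RNA-binding protein Dazap1 (0.08, beside 0.14), Ppil4 and Sart1, and nearest to Tfb2m were Msantd4 (0.08, beside 0.17), Rab18 and Vps29. These lists describe likeness across the same libraries that the comparisons used.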

How the data were processed

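The submitters' processing notes name DESeq2, featureCounts, HISAT2, Trimmomatic and mm10; versions, strand setting and annotation are not given in the sources used here. Judged from the values, the authors deposited a depth-normalized signal: reads per gene over a size factor for each library, of which 100% came back as whole reads (tolerance 0.01 reads). It is called a normalized count here. Genes with at least 10 in at least 3 of 19 libraries (23973) entered a robust limma-trend model of the 4 groups on log2(value + 1), with limma 3.58.1 under R 4.3.3, two-sided, Benjamini-Hochberg adjusted. Fold changes on this scale understate low genes. Symbols, for 99.5% of genes, exon lengths and overlaps came from GENCODE M21 (mm10), and promoters from RefSeq (GRCm38.p6). Named were the 10 regulators, up to 4 called genes per list by smallest p (otherwise 2), and 3 nearest genes per called regulator. A gene that this rule names is not reported here. The members and lists were chosen with earlier results of these data known. Alternatives were edgeR 4.0.16 and DESeq2 1.42.0 on recovered reads, TMM scaling, pseudocounts of 0.5 and 10, a filter at 50 or none, fits of only the compared groups, the animal number as a block, marker covariates, the 3 libraries left out, and each library left out in turn. Covariates for choroid plexus, microglial and astrocyte markers were added after seeing the data, for HEM against WT at 13 months only. The fit was checked on simulated data.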

Additional observations from a re-analysis of the deposited data

Results flagged for a closer look

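Of the 30 gene and group pairs tested (10 regulators in the 3 groups of 4 to 10 libraries), 2 had 1 library far from the rest by Dixon's test, and chance flags about 1 in 20. Ppargc1b had 1003 normalized counts in HEM replicate 1 at 13 months, where the next library had 653, a gap of 0.614 of the group's range. That library is also 1 of the 3 that stand apart, and without those 3 the log2 difference of Ppargc1b at 13 months was 0.05 in place of 0.13. Nrf1 had 3273 in HEM replicate 4 at 3 months, where the next library had 2894, a gap of 0.842 of the range. Both gaps exceed Dixon's critical value at the 95% level.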

How the results depend on the processing

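The number of regulators called at 13 months, 6, was 3 with no filter on low values, 3 in a fit of the compared groups alone, and 3 without the 3 libraries that stand apart, and these were Esrra, Esrrb and Esrrg each time. It was 0 with the neutrophil and erythroid covariate, 0 with the choroid plexus covariate and 0 with the replicate block, and 3 to 6 when 1 library was left out. The number called between ages in WT was 2 under DESeq2 and 0 to 2 when 1 library was left out, and the number called for the difference of the genotype effects was 3 under DESeq2. Deviations of same-numbered animals correlated at -0.07 to 0.17. The best match had the same number for HEM animals 3, 4 and 7 between the ages and for number 7 at 13 months. For the others it had another number. With 2 to 4 shared numbers per comparison, this cannot decide whether the numbers pair the animals. The block left 0 of all genes called at 13 months, against 2918.

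Signs turned as follows. With the choroid plexus covariate at 13 months Ppargc1a was at 0.06 and Ppargc1b at -0.27. At 3 months Esrrg was at 0.04 under edgeR, 0.05 under DESeq2, 0.21 with the neuronal covariate and 0.18 without the 3 libraries, Esrrb at 0.14 with the neuronal covariate, Esrra at -0.08 and Tfb2m at -0.03 with the block, and Esrra at -0.03 with the neutrophil and erythroid covariate. With the block, the age difference in WT was -0.12 for Esrrg, 0.04 for Ppargc1b and -0.04 for Gabpa, that in HEM 0.05 for Tfb2m, and the interaction 0.05 for Ppargc1a. The age difference of Tfb2m in HEM was 0.04 with the neutrophil and erythroid covariate. Leaving out 1 library gave -0.02 to 0.10 for Esrra, -0.30 to 0.07 for Esrrb and -0.19 to 0.18 for Esrrg at 3 months, -0.04 to 0.01 for Polrmt with age in WT, and -0.06 to 0.02 for Tfb2m with age in HEM. The causes were not tested. All-gene counts moved by over 1.5 times under DESeq2 for age in WT (1217, against 170), age in HEM (1308, against 388) and the interaction (938, against 0). In a fit of the compared groups alone they did so for age in WT (77) and in HEM (231). Without the 3 libraries these were 256 and 203. Age in WT also moved under edgeR (103), with no filter (79) and with a filter at 50 (292). With the neutrophil and erythroid covariate age in WT gave 4 and age in HEM 0, and with the block 0 and 1. Without 1 library they ran from 1707 to 3287 at 13 months (against 2918), 0 to 523 for age in WT, 62 to 648 for age in HEM and 0 to 313 for the interaction. Depth was 63.3 M reads or more in each library, and the lowest value of any regulator was 228 normalized counts.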
